A study of Mus musculus with 12 samples.

Results

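Genes that make, sense, move and export cholesterol were followed in mouse liver. The set held 33 genes chosen by name out of 41325 in the gene tables, and each was found once. By role, 18 encode enzymes of cholesterol synthesis, 4 belong to the sterol sensing machinery, 7 serve uptake, transport inside the cell or storage, and 4 serve efflux. All mice were C57BL/6J of wild-type genotype, with 4 livers in each of 3 groups. CDDO-Me livers came from mice with nonalcoholic steatohepatitis (NASH) brought on by the CDAHFD diet and given CDDO-Me (bardoxolone methyl, a synthetic triterpenoid that activates the transcription factor NRF2) by mouth at 10 mg/kg for 8 weeks. NASH vehicle livers came from mice on the same disease diet given vehicle, and control livers from mice without NASH given vehicle. The labels give neither the age of the mice, nor how long the diet lasted, nor what control mice ate, so disease and diet composition cannot be told apart in a comparison with control.

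Cholesterol is built from acetyl-CoA in a long chain of steps that runs through mevalonate, squalene and lanosterol. When sterols are scarce, SCAP escorts SREBP2, the product of Srebf2, out of the endoplasmic reticulum, and the released factor switches on nearly the whole chain. When sterols are plentiful, INSIG proteins hold SCAP back. Liver cells also dispose of cholesterol, through ABCA1 to nascent high-density lipoprotein and through the paired transporters ABCG5 and ABCG8, which work as a single pump, into bile.

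Of the 32 members tested, 20 fell and 2 rose in NASH vehicle livers relative to control, a comparison in which 59.7% of all tested genes were called (edgeR quasi-likelihood test, adjusted p under 0.05), 29.6% higher and 30.0% lower. With CDDO-Me, 4 members rose and 2 fell relative to NASH vehicle, where 16.6% of all tested genes were called, 9.39% higher and 7.24% lower. Relative to control, 5 were higher and 19 lower with CDDO-Me, where 49.8% of all tested genes were called. Groups did not overlap for 21 members between NASH vehicle and control, where 54.4% of all tested genes did not, for 7 between CDDO-Me and NASH vehicle, where 21.6% did not, and for 19 between CDDO-Me and control, where 43.7% did not. Abcg5 and Abcg8 fell in NASH vehicle livers and were more than 4-fold higher with CDDO-Me, above control. With TMM (trimmed mean of M-values) scaling, the falls in most synthesis genes, Insig1 and Stard4 in NASH were still present with CDDO-Me.

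Libraries held between 28161057 and 33852338 gene reads, and 16456 genes, 32 of the members included, had enough reads to be tested. Levels are given as CPM, counts scaled to library size with TMM factors, and, to compare genes with each other, as TPM, which also divides by exon length. The scaling matters here. The median gene differed by -0.01 (log2) between NASH vehicle and control with TMM, by 0.62 when libraries were scaled by their totals alone, and by 0.51 as log2(TPM + 1). Of all genes called in that comparison, 49.6% were higher with TMM, 88.2% with library totals alone and 92.6% as log2(TPM + 1). For CDDO-Me against NASH vehicle those shares were 56.5%, 36.8% and 23.01%, and for CDDO-Me against control 52.7%, 88.5% and 91.6%. Changes are therefore relative to the typical gene. All 20 hepatocyte markers had reads in every library, as a liver label requires, and control 3 held more smooth muscle RNA than any other library, with 486 CPM summed over 8 markers against 22.6 to 31.4 in the other control livers. Nothing in the labels ties the 4 livers of a group to separate cages or batches, so p-values measure the spread between these animals. The 3 comparisons share libraries and are not independent of each other.

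Most enzymes of cholesterol synthesis were lower in NASH. Of the 18, 13 fell in NASH vehicle livers relative to control, 0 rose and 5 were not called. Their median log2 change was -0.76, against -0.01 over all tested genes. Falls were common in this comparison, in which 30.0% of all tested genes were called lower. With library totals alone, 5 of the 18 were called lower and 0 higher, and as log2(TPM + 1), 4 were called lower and 2 higher. Their summed level was 1757 ± 211 CPM in NASH vehicle livers and 3054 ± 649 CPM in control livers (SD, n = 4 each), and the ranges of 1488 to 1996 and 2604 to 4006 CPM did not overlap. In TPM the same sum was 1325 ± 144 in NASH vehicle livers and 1341 ± 296 in control livers, and the ranges of 1138 to 1477 and 1071 to 1762 did overlap. Hepatocyte markers moved with them: 17 of 20 fell, and their summed level ran between 63485 and 97299 CPM in NASH vehicle livers, against 136460 to 162207 CPM in control livers. In TPM their ranges overlapped, at 111572 to 140722 in NASH vehicle livers and 125394 to 141128 in control livers. In whole liver, fewer cells of a type and less RNA per cell cannot be told apart, and the part of hepatocyte RNA in the synthesis genes was not tested.

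The largest falls sat at scattered points of the chain. Tm7sf2, a sterol reductase of the late steps, fell by 1.58 ± 0.14 (log2 ± SE, edgeR adjusted p = 6.8e-07), Pmvk, which phosphorylates phosphomevalonate, by 1.49 ± 0.18, and Ebp, the sterol isomerase, by 1.41 ± 0.16. Sc5d, a sterol desaturase, fell by 1.22 ± 0.16. These 4 were called lower under each of the 5 scalings tried. Fdps, which makes farnesyl diphosphate, fell by 1.10 ± 0.22 and Acat2, which joins acetyl-CoA units at the start of the chain, by 1.08 ± 0.15. Mvd, the decarboxylase of the mevalonate steps, fell by 0.98 ± 0.21. The remaining called members were Lss, Dhcr7, Hsd17b7, Nsdhl, Fdft1 and Msmo1, with log2 changes between -0.94 and -0.56. Of these, Fdft1 (squalene synthase) and Msmo1 (methylsterol monooxygenase) were at 0.06 each with library totals alone, and they, Dhcr7, Hsd17b7 and Nsdhl were above 0 as log2(TPM + 1).

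The early synthase and several abundant enzymes did not pass. Hmgcs1, the cytosolic synthase that feeds the mevalonate steps, had 369, 329.9, 368 and 281 CPM in NASH vehicle livers, against 263, 359, 365 and 609 CPM in control livers (log2 change -0.24 ± 0.24, adjusted p = 0.40). Control 4 was far above the other 3, and the groups overlapped. Sqle, squalene epoxidase, had 60.2, 69.4, 62.4 and 54.0 CPM in NASH vehicle livers, against 75.7, 42.7, 54.8 and 83.8 CPM in control livers, with the NASH values inside the control range (-0.06 ± 0.21). Idi1, the isomerase that makes the reactive isoprene unit, had 193, 209.9, 170.0 and 139 CPM in NASH vehicle livers, against 226, 203, 193 and 374 CPM in control livers (-0.48 ± 0.26, adjusted p = 0.13). Cyp51, the lanosterol demethylase, had 174, 193, 143 and 132 CPM in NASH vehicle livers, against 190.1, 208, 161 and 278 CPM in control livers (-0.38 ± 0.19, adjusted p = 0.093). Mvk, mevalonate kinase, was at -0.27 ± 0.19. For all 5 the groups overlapped, and control 4 was the highest control library. As log2(TPM + 1) all 5 were above 0 in NASH vehicle livers relative to control, Mvk at 0.55, Sqle at 0.77, Hmgcs1 at 0.65, Idi1 at 0.39 and Cyp51 at 0.46.

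**Figure D1:**
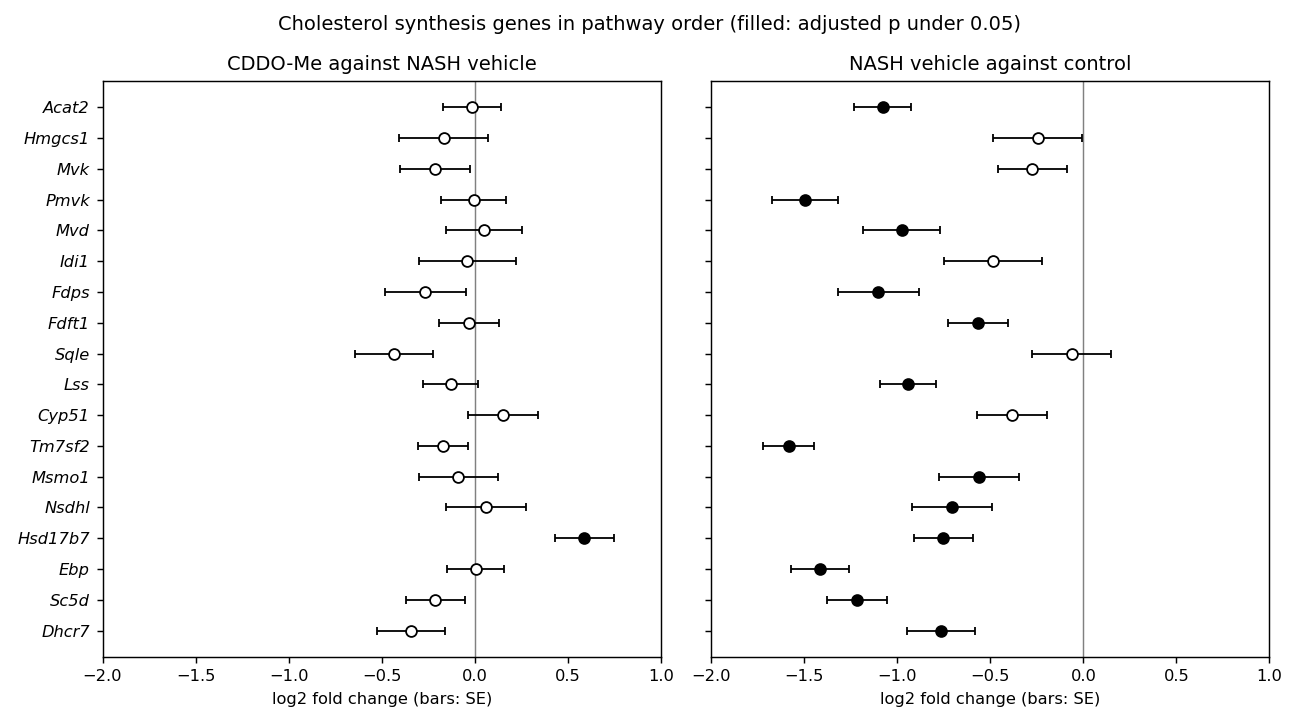
Log2 fold changes of the 18 synthesis genes in pathway order, from Acat2 at the top to Dhcr7 at the bottom, with CDDO-Me against NASH vehicle on the left and NASH vehicle against control on the right. Points are fitted values, bars are SE and filled points have adjusted p under 0.05: 13 are filled on the right, all below 0, and 1, Hsd17b7, on the left.

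With CDDO-Me, nearly all of these enzymes were called neither higher nor lower than in NASH vehicle livers. Of the 18, 1 rose relative to NASH vehicle, 0 fell and 17 were not called. Most tested genes of any kind were likewise not called here: 16.6% were, 9.39% higher and 7.24% lower. The median log2 change of the 18 was -0.06, against -0.01 over all tested genes. Summed over the 18, the level was 1646 ± 358 CPM in CDDO-Me livers and 1757 ± 211 CPM in NASH vehicle livers. Summed hepatocyte markers ran between 59907 and 89982 CPM in CDDO-Me livers, which overlaps NASH vehicle. Relative to control, 13 were lower with CDDO-Me and 0 higher, where 23.6% of tested genes were called lower. With library totals alone 8 were lower, and as log2(TPM + 1) 6 were, with 0 higher under either. Under each of the 5 scalings, Pmvk, Tm7sf2, Ebp and Sc5d were called lower in both NASH groups. With TMM, the 12 called lower in both were Acat2, Pmvk, Mvd, Fdps, Fdft1, Lss, Tm7sf2, Msmo1, Nsdhl, Ebp, Sc5d and Dhcr7. The Msmo1 fall in NASH vehicle livers was not called without control 2 or 4 or NASH vehicle 2, 3 or 4. Its adjusted p was then between 0.053 and 0.13. With CDDO-Me, its call against control was lost without control 4 or CDDO-Me 2, 3 or 4 (adjusted p between 0.052 and 0.077). The Nsdhl call there was lost without control 4 or CDDO-Me 2 or 3 (adjusted p between 0.064 and 0.077). Mvk joined the 12 with CDDO-Me alone (-0.49 ± 0.19, adjusted p = 0.046), but leaving out any of 10 libraries ended that call, and without control 4 it was -0.39 (adjusted p = 0.13).

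Single libraries carried much of the spread. CDDO-Me 1 was the highest of its group for 17 of the 18 enzymes and control 4 the highest of its group for 17, while NASH vehicle 4 was the lowest of its group for 16. Fdps shows the pattern, with 183, 95.9, 99.96 and 98.3 CPM in CDDO-Me livers, against 154, 152, 145 and 122 CPM in NASH vehicle livers and 290.2, 297, 232 and 412 CPM in control livers. Without CDDO-Me 1, Fdps was called lower with CDDO-Me than with vehicle in NASH (-0.55, adjusted p = 0.049). Hmgcs1, Idi1 and Sqle were then called lower than control (-0.62, -0.78 and -0.66).

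**Figure D2:**
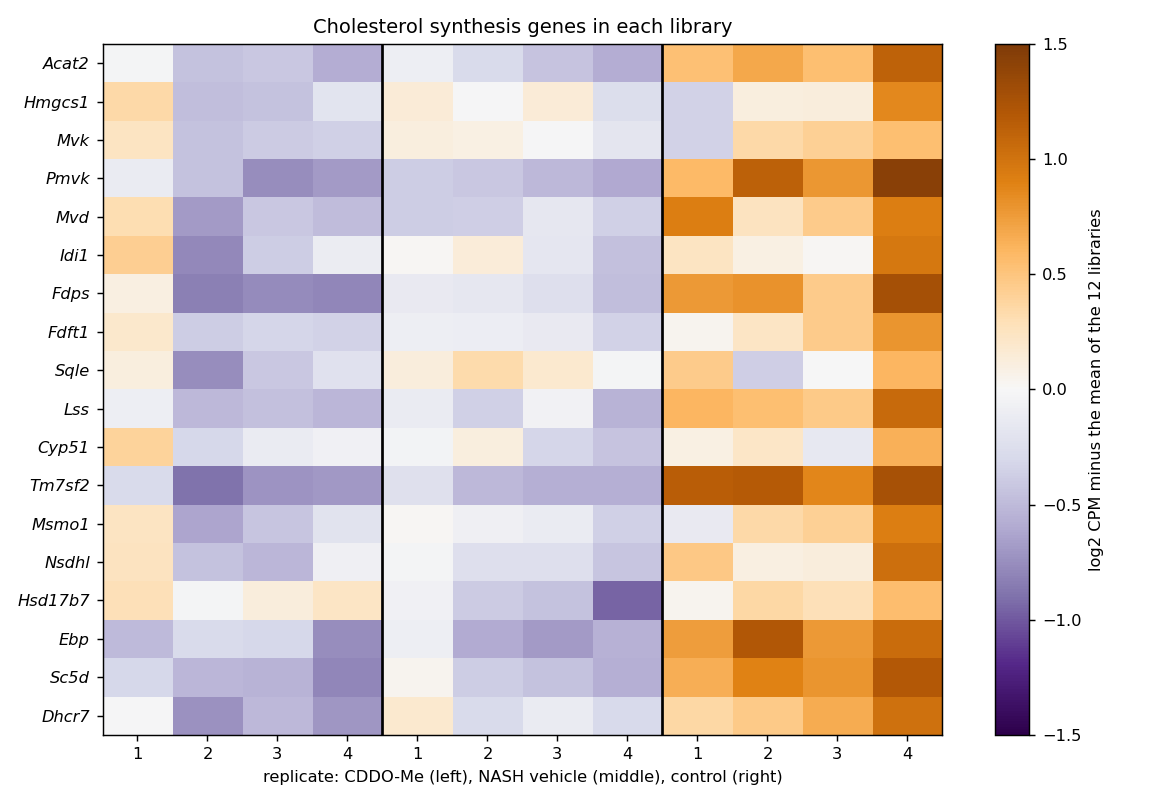
Levels of the 18 synthesis genes in each library, as log2 CPM minus the mean over the 12 libraries (colour scale), with CDDO-Me replicates 1 to 4 on the left, NASH vehicle in the middle and control on the right. CDDO-Me 1 and control 4 are the highest library of their group for 17 genes each.

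The single synthesis gene called between CDDO-Me and NASH vehicle was a late one. Hsd17b7, a keto-sterol reductase that works with Nsdhl and Msmo1, had 58.9, 47.5, 52.8 and 56.7 CPM in CDDO-Me livers, against 46.5, 36.9, 35.3 and 25.1 CPM in NASH vehicle livers and 49.7, 62.0, 59.1 and 71.2 CPM in control livers. Every CDDO-Me value lay above every NASH vehicle value and inside or just under the control range, and the gene rose by 0.59 ± 0.16 (adjusted p = 0.023). Leaving out NASH vehicle 2, 3 or 4 or CDDO-Me 1 or 3 ended the call, with adjusted p between 0.052 and 0.062. It was also lost with library totals alone (0.45, adjusted p = 0.093), as log2(TPM + 1) (0.38, adjusted p = 0.16) and by exon-exon reads (0.45, adjusted p = 0.072). Dhcr7, the reductase of the final step, had 59.5, 36.2, 42.5 and 36.8 CPM in CDDO-Me livers, against 68.3, 49.6, 55.5 and 48.8 CPM in NASH vehicle livers and 77.2, 82.9, 95.5 and 122 CPM in control livers (-0.34 ± 0.18 for CDDO-Me against NASH vehicle, adjusted p = 0.22). Lss, lanosterol synthase, had 36.5, 27.4, 28.1 and 27.0 CPM in CDDO-Me livers, against 35.8, 30.4, 37.4 and 26.6 CPM in NASH vehicle livers and 59.0, 56.6, 53.5 and 81.1 CPM in control livers. Both NASH groups overlapped each other for these genes and lay below every control value.

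Of the 5 enzymes that did not pass in NASH, all but Mvk did not pass with CDDO-Me against control either, and none passed against NASH vehicle. Sqle had 59.8, 32.8, 41.5 and 47.7 CPM in CDDO-Me livers, a log2 difference of -0.44 ± 0.21 from NASH vehicle (adjusted p = 0.18). Hmgcs1 had 423, 241, 245 and 291 CPM there (-0.17 ± 0.24), Idi1 had 258, 111, 147 and 176 CPM (-0.04 ± 0.26), and Cyp51 had 235, 144, 164 and 170.5 CPM (0.15 ± 0.19). In all 4 the CDDO-Me and NASH vehicle ranges overlapped. Against control, Sqle was at -0.50 ± 0.21 with CDDO-Me (adjusted p = 0.067). It was called lower there with DESeq2 (adjusted p = 0.042) and without control 2 or 3 or CDDO-Me 1. Sqle intron reads alone were also called lower in that comparison (-0.59 ± 0.22, adjusted p = 0.048).

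Promoter sequence is given as background, and its part in the changes of these genes was not tested. SREBP2 acts on sterol response elements together with NF-Y, which binds CCAAT, and SP1, which binds GC boxes. RefSeq (GRCm38.p6) promoters of 300 bases, 250 before the start site and 50 after it, were at hand for 26 of the 33 members. The 15 synthesis genes with an entry had 18 promoters. Of these 18, 14 (77.8%) held CCAAT on either strand, against 37.4% of all 32851 promoters. GGGCGG was found in 15 of the 18 (83.3%), against 35.7%. TCACNCCAC, a sterol response element, was found in 1 of the 18 (5.56%), that of Hmgcs1, against 1.24% of all promoters. CACGTG was found in 3 (16.7%), against 7.15%. No match of any of these motifs overlapped another. A match describes letters only and is no measured binding. Shown are Hmgcs1, which holds a match to TCACNCCAC and did not pass the test, Ebp, which fell in NASH, Hsd17b7, which rose with CDDO-Me, and Insig1, which fell furthest among the sensing genes. Capitals mark matches to these motifs on either strand, and each stretch runs 5′ to 3′ on the gene's strand, ending just before its outermost annotated start. In the Hsd17b7 stretch, 13 bases lie in an annotated exon of another gene, 3110045C21Rik.
Hmgcs1 (chr13:119690171-119690350, plus strand): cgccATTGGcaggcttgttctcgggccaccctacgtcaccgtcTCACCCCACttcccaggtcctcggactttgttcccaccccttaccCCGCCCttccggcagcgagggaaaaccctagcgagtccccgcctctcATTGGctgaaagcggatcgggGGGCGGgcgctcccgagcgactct
Ebp (chrX:8193513-8193692, minus strand): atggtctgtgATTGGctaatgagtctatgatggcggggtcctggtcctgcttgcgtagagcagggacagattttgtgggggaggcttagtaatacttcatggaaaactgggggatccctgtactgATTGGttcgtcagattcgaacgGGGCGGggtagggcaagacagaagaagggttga
Hsd17b7 (chr1:169969242-169969421, minus strand): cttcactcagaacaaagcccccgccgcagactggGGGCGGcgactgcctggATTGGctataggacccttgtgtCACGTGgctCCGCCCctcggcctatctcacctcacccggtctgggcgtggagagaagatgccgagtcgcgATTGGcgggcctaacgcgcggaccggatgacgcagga
Insig1 (chr5:28071183-28071362, plus strand): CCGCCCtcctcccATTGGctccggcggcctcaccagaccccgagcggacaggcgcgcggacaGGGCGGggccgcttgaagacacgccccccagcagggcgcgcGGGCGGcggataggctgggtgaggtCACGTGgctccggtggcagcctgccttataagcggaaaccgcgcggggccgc

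The 4 sensing genes did not move together. Insig1, which retains SCAP in the endoplasmic reticulum and is itself an SREBP2 target, had 193, 159.7, 177 and 109.6 CPM in CDDO-Me livers, against 178, 144, 164 and 126 CPM in NASH vehicle livers and 470.0, 498, 385 and 421 CPM in control livers. Both NASH groups overlapped each other and stayed below every control value: Insig1 fell by 1.53 ± 0.17 in NASH vehicle livers relative to control (adjusted p = 5.4e-06) and by 1.47 ± 0.17 in CDDO-Me livers relative to control. The difference of CDDO-Me from NASH vehicle was 0.06 ± 0.17. Insig2, the other retention protein, had 429.9, 592, 599.9 and 428 CPM in CDDO-Me livers, against 393, 372, 327 and 361 CPM in NASH vehicle livers and 399, 392, 308 and 377 CPM in control livers. All CDDO-Me values exceeded the others, a rise of 0.50 ± 0.14 over NASH vehicle (adjusted p = 0.028) and of 0.47 ± 0.14 over control (adjusted p = 0.013). The first of these calls was lost without NASH vehicle 2, 3 or 4 or CDDO-Me 2 or 3, with adjusted p between 0.061 and 0.098. Insig2 rose over control under all 5 scalings, while its change between NASH vehicle and control was -0.02 with TMM and 0.61 with library totals alone. As a ratio of TPM, Insig2 stood at 2.93 ± 0.66 times Insig1 in CDDO-Me livers, at 2.10 ± 0.35 in NASH vehicle livers and at 0.74 ± 0.04 in control livers (SD, n = 4 each), and no control ratio reached those of either NASH group.

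Srebf2, which encodes SREBP2, had 71.3, 64.4, 65.3 and 68.8 CPM in CDDO-Me livers, against 93.1, 87.9, 90.5 and 92.1 CPM in NASH vehicle livers and 79.7, 78.1, 99.1 and 87.7 CPM in control livers. Values within each NASH group were tight and the 2 groups did not overlap: Srebf2 fell by 0.43 ± 0.08 with CDDO-Me relative to NASH vehicle (adjusted p = 0.0039) and by 0.35 ± 0.08 relative to control, the last at 0.12 with library totals alone and at 0.22 as log2(TPM + 1). The fall against NASH vehicle was called under each of the 26 alternatives. Between NASH vehicle and control, Srebf2 was not called with TMM (0.08 ± 0.08). There it was called higher in NASH vehicle livers with library totals alone (0.70) and as log2(TPM + 1) (0.85). Scap, the escort, was at 85.5 ± 9.63 CPM in CDDO-Me livers, 86.0 ± 10.8 CPM in NASH vehicle livers and 165 ± 14.4 CPM in control livers, lower than control by 0.95 ± 0.11 with CDDO-Me and by 0.94 ± 0.11 in NASH vehicle livers. The fall in NASH vehicle livers was not called as log2(TPM + 1), at -0.13 (adjusted p = 0.32).

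**Figure D3:**
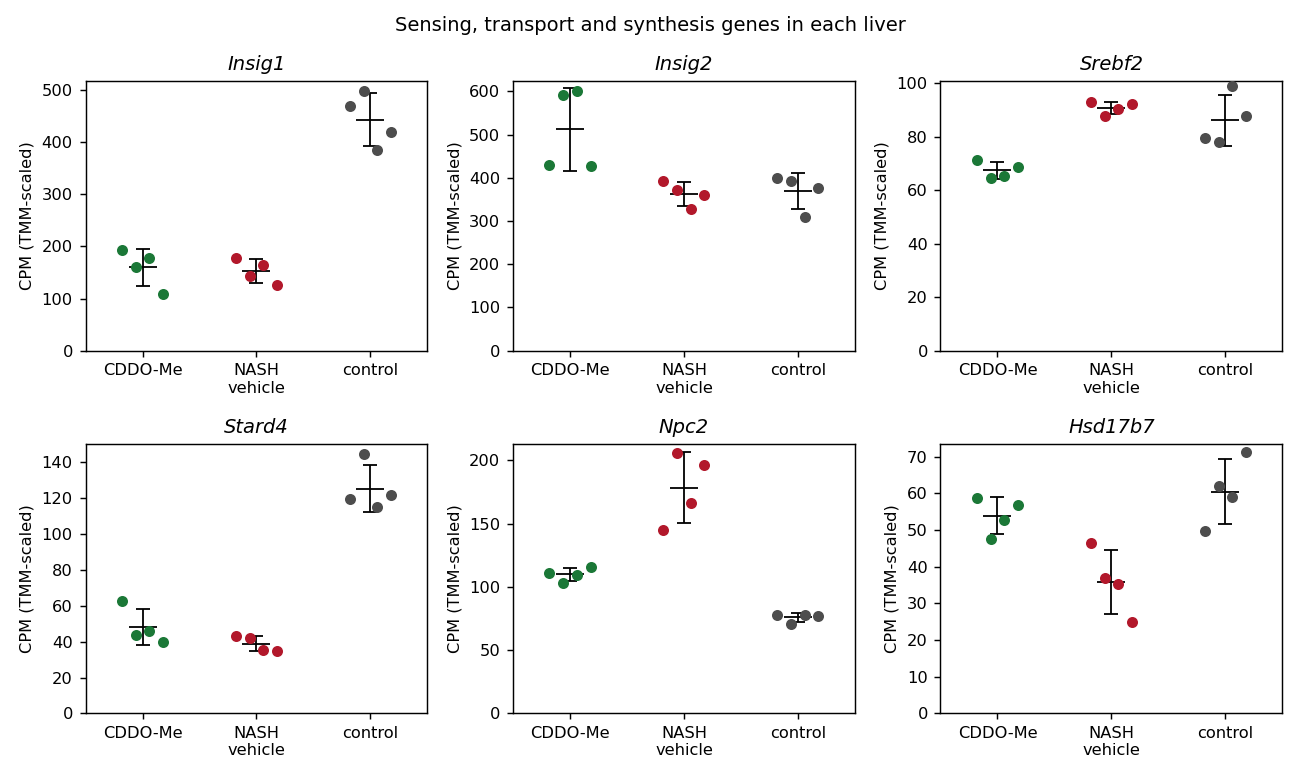
CPM of Insig1, Insig2, Srebf2, Stard4, Npc2 and Hsd17b7 in each liver, with CDDO-Me on the left, NASH vehicle in the middle and control on the right of each panel. Points are livers, and the bar with caps is the mean ± SD of 4. Insig1 and Stard4 lie below control in both NASH groups, and Npc2 and Hsd17b7 with CDDO-Me lie nearer control relative to NASH vehicle.

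Genes of uptake, transport and storage split in direction. Npc2, which passes cholesterol from lysosomal lipoproteins to NPC1, had 111, 103, 109 and 116 CPM in CDDO-Me livers, against 145, 206, 167 and 196 CPM in NASH vehicle livers and 78.1, 71.0, 77.8 and 76.8 CPM in control livers. The 3 groups did not overlap: Npc2 rose by 1.23 ± 0.11 in NASH vehicle livers relative to control (adjusted p = 7.6e-07) and fell by 0.70 ± 0.11 with CDDO-Me relative to NASH vehicle (adjusted p = 0.00075), staying 0.53 ± 0.11 above control. Summed macrophage markers took the same order, with 1541 ± 418 CPM in CDDO-Me livers, 3270 ± 840 CPM in NASH vehicle livers and 188 ± 48.8 CPM in control livers. All 15 of these markers rose in NASH vehicle livers and 11 of the 15 fell with CDDO-Me. Mean sums of lipid-associated macrophage, cholangiocyte, and stellate cell and fibroblast markers took that order too. The last were at 1058 ± 296 CPM in CDDO-Me livers, 2196 ± 389 CPM in NASH vehicle livers and 340 ± 74.1 CPM in control livers. Sums of hepatocyte, Kupffer cell, smooth muscle and endothelial markers did not. The part of any cell type in the Npc2 values was not tested. Npc1, the partner protein, had 104, 112, 102 and 114 CPM in CDDO-Me livers, against 136, 119, 122 and 113 CPM in NASH vehicle livers and 110.2, 94.7, 119 and 104 CPM in control livers, with no call (-0.18 ± 0.09 and 0.20 ± 0.09 for CDDO-Me against NASH vehicle and NASH vehicle against control, adjusted p = 0.19 and 0.078). In 10 alternatives Npc1 was called higher in NASH vehicle livers than in control, among them DESeq2 (0.24, adjusted p = 0.016), exon reads (0.24, adjusted p = 0.036) and library totals alone (0.82), and in 3 it was called higher with CDDO-Me than in control.

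Stard4, a carrier that moves cholesterol between membranes in the cytosol, gave the largest fall of any member tested between NASH vehicle and control. It had 62.7, 43.8, 46.0 and 39.7 CPM in CDDO-Me livers, against 43.1, 41.9, 35.5 and 34.7 CPM in NASH vehicle livers and 119.5, 145, 115 and 122 CPM in control livers. Every NASH value lay far below control, at -1.69 ± 0.14 for NASH vehicle (adjusted p = 4.5e-07) and -1.38 ± 0.14 for CDDO-Me, and CDDO-Me and NASH vehicle differed by 0.31 ± 0.14 (adjusted p = 0.14). Mylip, the ubiquitin ligase that removes lipoprotein receptors, had 21.5, 22.3, 21.4 and 25.5 CPM in CDDO-Me livers, against 18.6, 21.4, 23.9 and 18.5 CPM in NASH vehicle livers and 17.2, 15.5, 11.5 and 14.5 CPM in control livers. Both NASH groups lay above control with no overlap, at 0.63 ± 0.13 with CDDO-Me and 0.49 ± 0.13 in NASH vehicle livers (adjusted p = 0.0045). Introns held 37.0% of its reads. Relative to control, Mylip intron reads alone were at -0.33 ± 0.19 with CDDO-Me and -0.41 ± 0.19 in NASH vehicle livers, neither called.

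The high-density lipoprotein receptor and the esterifying enzyme did not pass. Scarb1, which takes up cholesteryl ester from high-density lipoprotein, had 231, 269.7, 239.9 and 216 CPM in CDDO-Me livers, against 271, 204, 200.1 and 239 CPM in NASH vehicle livers and 215, 188, 225 and 201 CPM in control livers. Its largest log2 difference between groups was 0.20 ± 0.12, while with library totals alone and as log2(TPM + 1) it was called higher in both NASH groups than in control. Soat2, which esterifies cholesterol for storage and secretion, had 60.5, 74.0, 52.9 and 50.8 CPM in CDDO-Me livers, against 78.0, 55.8, 80.2 and 53.6 CPM in NASH vehicle livers and 47.6, 49.4, 55.7 and 63.2 CPM in control livers, with all groups overlapping. Its difference between NASH vehicle and control was 0.31 ± 0.16 (adjusted p = 0.11), but with library totals alone Soat2 was called higher in both NASH groups than in control, at 0.60 with CDDO-Me and 0.94 in NASH vehicle livers, and likewise as log2(TPM + 1). Introns held 32.96% of its reads, and intron reads alone rose by 0.79 ± 0.26 in NASH vehicle livers relative to control (adjusted p = 0.022). Npc1l1, the sterol uptake protein best known in the intestine, had too few reads to test. It collected 8 reads in CDDO-Me livers, 32 in NASH vehicle livers and 24 in control livers, and 23 of the last lay in control 3.

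Efflux genes gave the widest changes. All 4 fell in NASH vehicle livers relative to control, where 30.0% of all tested genes were called lower. With library totals alone 2 of the 4 were called lower, and as log2(TPM + 1) 1 was. With CDDO-Me relative to NASH vehicle, 2 rose and 2 did not pass, where 9.39% of all tested genes were called higher. Abcg5 had 119, 137, 115 and 110.4 CPM in CDDO-Me livers, against 33.9, 21.5, 22.9 and 21.7 CPM in NASH vehicle livers and 66.4, 71.9, 51.0 and 84.4 CPM in control livers. Abcg8, its partner, had 169.6, 187, 169 and 150.2 CPM in CDDO-Me livers, against 54.5, 31.5, 36.0 and 32.9 CPM in NASH vehicle livers and 59.4, 73.5, 68.4 and 99.4 CPM in control livers. For both genes the 3 groups did not overlap, with CDDO-Me highest and NASH vehicle lowest.

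Relative to NASH vehicle, Abcg5 rose 4.81-fold with CDDO-Me (log2 2.27 ± 0.17, adjusted p = 3.2e-06) and Abcg8 4.36-fold (2.12 ± 0.19, adjusted p = 1.3e-05). Both also rose relative to control, Abcg5 by 0.81 ± 0.17 (adjusted p = 0.0012) and Abcg8 by 1.17 ± 0.18 (adjusted p = 0.00017). In NASH vehicle livers, Abcg5 fell by 1.45 ± 0.17 and Abcg8 by 0.96 ± 0.18 relative to control, but the Abcg8 fall was not called with library totals alone (-0.34, adjusted p = 0.087) or as log2(TPM + 1). The rises with CDDO-Me against NASH vehicle and against control were called under each of the 26 alternatives. As a ratio of TPM, Abcg8 stood at 1.05 ± 0.05 times Abcg5 in CDDO-Me livers, 1.15 ± 0.05 in NASH vehicle livers and 0.80 ± 0.14 in control livers (SD, n = 4 each).

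Abcg5 and Abcg8 lie head to head on chromosome 17, and their annotated spans overlap, so reads from the shared stretch cannot be told apart where strand was not used. Reads that cross exon junctions gave log2 changes of 2.25 for Abcg5 and 2.11 for Abcg8 for CDDO-Me against NASH vehicle. RefSeq places the start sites at 84683011 on the minus strand and 84683121 on the plus strand. The 109 bases between them are shown because both genes moved together, with the GATA-type motif AGATAA, searched on both strands and chosen after the sequence was seen, in capitals as its complement. At least 1 match occurs in 3.98% of windows of that length before the start sites of all RefSeq promoters, and at least 2 in 0.186%. Because the motif was picked from this same sequence, these shares cannot show that the interval is unusual.
Abcg5-Abcg8 interval (GRCm38.p6, chr17:84683012-84683120, plus strand): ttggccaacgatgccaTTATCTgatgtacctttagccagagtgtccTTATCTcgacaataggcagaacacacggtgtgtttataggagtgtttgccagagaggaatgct

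**Figure D4:**
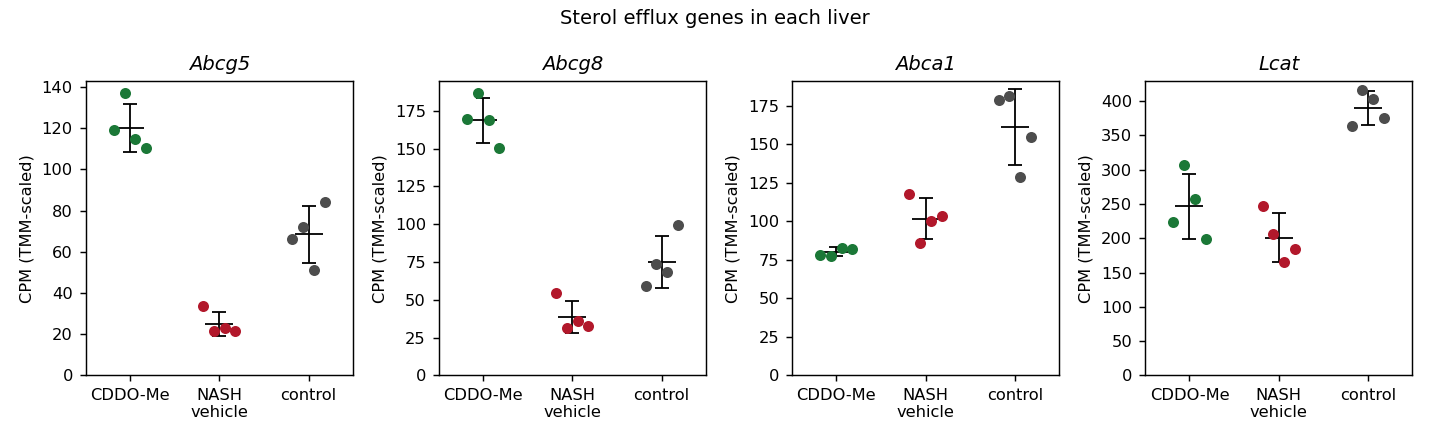
CPM of Abcg5, Abcg8, Abca1 and Lcat in each liver, with CDDO-Me on the left, NASH vehicle in the middle and control on the right of each panel. Points are livers, and the bar with caps is the mean ± SD of 4. All 4 CDDO-Me livers exceed every other liver for Abcg5 and Abcg8, and lie below every other liver for Abca1.

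Abca1, which loads cholesterol onto apolipoprotein A-I, was lowest with CDDO-Me. It had 77.9, 77.8, 83.0 and 82.3 CPM in CDDO-Me livers, against 118, 86.0, 100.2 and 103 CPM in NASH vehicle livers and 179, 182, 129 and 155 CPM in control livers. The 3 groups did not overlap. Relative to control, Abca1 fell by 1.00 ± 0.12 with CDDO-Me (adjusted p = 1.7e-05) and by 0.66 ± 0.12 in NASH vehicle livers. The second of these was at -0.03 with library totals alone and at 0.16 as log2(TPM + 1), not called in either. The difference between CDDO-Me and NASH vehicle was -0.34 ± 0.12 (adjusted p = 0.065) and was called in 10 of the 26 alternatives, DESeq2 among them (adjusted p = 0.017).

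Lcat, the plasma enzyme that esterifies cholesterol on high-density lipoprotein, had 223, 307, 257 and 198 CPM in CDDO-Me livers, against 247, 206, 165 and 184 CPM in NASH vehicle livers and 364, 417, 403 and 376 CPM in control livers. Both NASH groups overlapped each other and lay below control, by 0.66 ± 0.15 with CDDO-Me and 0.96 ± 0.15 in NASH vehicle livers, calls that were not made as log2(TPM + 1). By TPM it was the most abundant member in every group. Only 54.0% of its reads were unique to it, so its level is uncertain, as are those of Fdps (39.7%), Lss (52.1%), Mvd (62.3%), Acat2 (74.3%) and Tm7sf2 (80.0%). A fit on unique reads alone changed the call of no member. Besides Abcg5 and Abcg8, 14 members overlap another annotated gene: Hmgcs1, Mvd, Idi1, Fdps, Fdft1, Lss, Cyp51, Tm7sf2, Srebf2, Scap, Insig2, Scarb1, Npc1 and Lcat.

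Intron reads, which come largely from unspliced transcripts, could be tested for 31 members. For CDDO-Me against NASH vehicle, 2 rose, Abcg5 by 2.25 ± 0.30 (adjusted p = 7.2e-05) and Abcg8 by 2.15 ± 0.30 (adjusted p = 9.8e-05), and 0 fell, where 4.82% of 12283 genes were called. For NASH vehicle against control, 12 fell and 2 rose, where 35.8% were called. Stard4 was at -2.17 ± 0.23, Insig1 at -2.11 ± 0.37 and Ebp at -1.92 ± 0.35. Srebf2 rose by 0.65 ± 0.25 (adjusted p = 0.043), and leaving out any of 6 libraries ended that call. For CDDO-Me against control, 2 rose, Abcg5 and Abcg8, and 12 fell, where 25.8% were called. Intron reads of Npc2 gave -0.19 ± 0.30 for CDDO-Me against NASH vehicle and -0.05 ± 0.31 for NASH vehicle against control, while its total reads were called in both. These Npc2 values rest on few intron reads, 12 to 58 per library. For Insig2, intron reads gave -0.04 ± 0.27 between CDDO-Me and NASH vehicle.

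**Figure D5:**
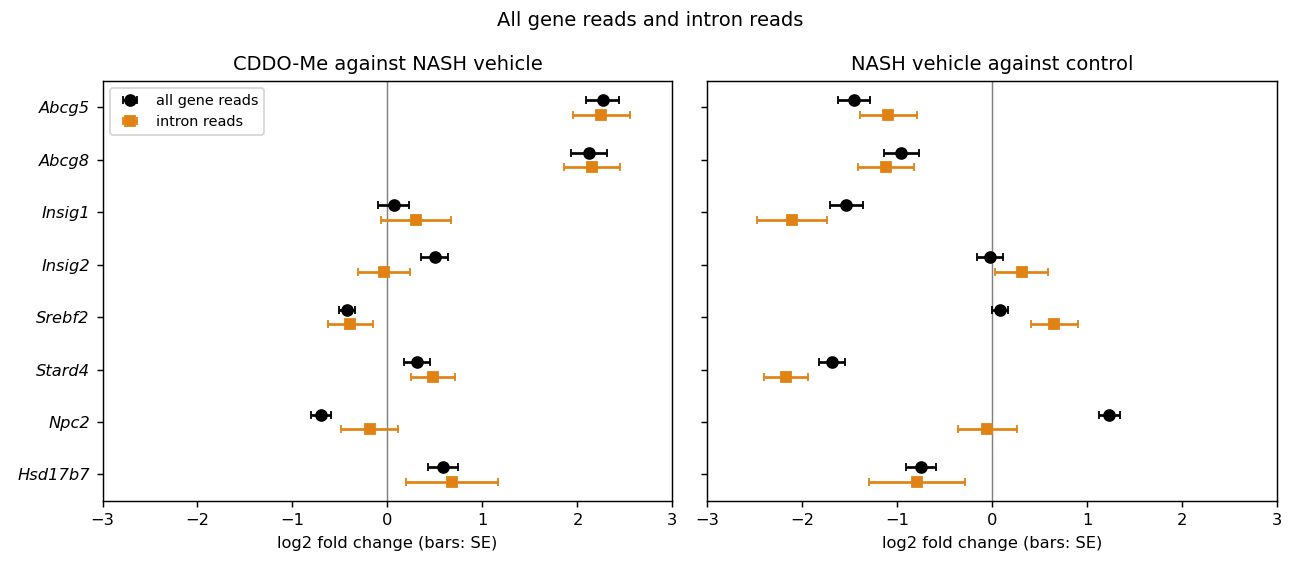
Log2 fold changes (horizontal axis, bars are SE) of 8 members from all gene reads (black circles) and from intron reads alone (orange squares), with CDDO-Me against NASH vehicle on the left and NASH vehicle against control on the right. Circles and squares lie close for Abcg5 and Abcg8 in both panels, and apart for Npc2 on the right, at 1.23 and -0.05.

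Other genes of cholesterol handling, 53 in 5 lists, were tested beside the members. In NASH vehicle livers relative to control 15 rose and 21 fell, and with CDDO-Me relative to NASH vehicle 5 rose and 9 fell, beside the 59.7% and 16.6% of all tested genes called in these comparisons. The balance in NASH turned with the scaling, to 32 higher and 9 lower with library totals alone and 37 higher and 4 lower as log2(TPM + 1). Among 11 partners in sterol sensing and degradation, 1 rose and 6 fell in NASH, but 5 were higher and 2 lower with library totals alone and 8 higher and 0 lower as log2(TPM + 1). With CDDO-Me relative to NASH vehicle 2 rose and 0 fell. Pgrmc1, a heme-binding membrane protein that assists sterol enzymes, averaged 2229 ± 500 CPM in CDDO-Me livers, 866 ± 99.6 CPM in NASH vehicle livers and 1731 ± 164 CPM in control livers (SD, n = 4 each), a rise of 1.36 ± 0.17 with CDDO-Me over NASH vehicle (adjusted p = 0.00014). Of 12 other synthesis and branch enzymes, 1 rose and 4 fell in NASH, but 7 were higher and 2 lower with library totals alone and 7 higher and 0 lower as log2(TPM + 1). With CDDO-Me relative to NASH vehicle 2 rose, Cyb5a, an electron donor to sterol enzymes, by 0.86 ± 0.15 and Acat1, the mitochondrial thiolase, by 0.63 ± 0.17. The Acat1 call was lost without NASH vehicle 2, 3 or 4 or CDDO-Me 2 or 3, with adjusted p between 0.057 and 0.080.

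The list of LXR (the oxysterol receptor) and some of its targets held 7 genes. It left out all members, among them Abca1, Abcg5, Abcg8 and Mylip, so its counts do not cover them. Of the 7, 2 rose and 3 fell in NASH (4 higher and 1 lower with library totals alone, 5 and 1 as log2(TPM + 1)). With CDDO-Me relative to NASH vehicle 0 of the 7 rose and 3 fell. Abcg1, a cholesterol exporter abundant in macrophages, averaged 23.05 ± 2.24 CPM in CDDO-Me livers, 35.9 ± 4.75 CPM in NASH vehicle livers and 3.96 ± 0.21 CPM in control livers, and fell by 0.64 ± 0.10 with CDDO-Me relative to NASH vehicle. Srebf1, the fatty acid counterpart of Srebf2, averaged 41.7 ± 4.89 CPM in CDDO-Me livers, 69.6 ± 12.6 CPM in NASH vehicle livers and 283 ± 59.2 CPM in control livers, lower in each step (-0.74 ± 0.16 and -2.02 ± 0.16). Pltp, a phospholipid transfer protein, fell by 1.14 ± 0.21 with CDDO-Me.

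Among 13 genes of transport and storage, 7 rose and 5 fell in NASH, and with CDDO-Me 1 rose and 2 fell. Over all tested genes, 59.7% were called in NASH and 16.6% with CDDO-Me. In NASH, 8 of the 13 were higher and 2 lower with library totals alone, and 9 higher and 2 lower as log2(TPM + 1). Soat1, the esterifying enzyme typical of macrophages, averaged 26.1 ± 6.52 CPM in CDDO-Me livers, 49.5 ± 12.1 CPM in NASH vehicle livers and 2.93 ± 1.14 CPM in control livers, and fell by 0.92 ± 0.24 with CDDO-Me relative to NASH vehicle (adjusted p = 0.023). That call was lost without NASH vehicle 2, 3 or 4 or CDDO-Me 1, 2 or 3, with adjusted p between 0.056 and 0.078. Cyp27a1, which oxidises cholesterol for bile acids, rose by 0.39 ± 0.12 with CDDO-Me relative to NASH vehicle and stayed 1.25 ± 0.12 below control on the log2 scale. The first of these calls was lost in 12 alternatives, among them library totals alone (0.23, adjusted p = 0.082), log2(TPM + 1) (0.18) and leaving out NASH vehicle 2, 3 or 4 or CDDO-Me 1, 2 or 3. Of 10 receptors and adaptors, 4 rose and 3 fell in NASH, and with CDDO-Me 0 rose and 4 fell. In NASH, 8 of the 10 were higher and 2 lower with library totals alone, and 8 higher and 1 lower as log2(TPM + 1). Msr1, a macrophage scavenger receptor, fell by 0.99 ± 0.13 with CDDO-Me. Cd36, a fatty acid and lipoprotein receptor, averaged 440 ± 57.7 CPM in CDDO-Me livers, 314 ± 47.1 CPM in NASH vehicle livers and 25.1 ± 5.44 CPM in control livers. Cd36 was not called between CDDO-Me and NASH vehicle, though some alternatives called it higher, DESeq2 among them (0.45, adjusted p = 0.038). Macrophage markers moved in the same directions as Abcg1, Soat1 and Msr1, and their part in these values was not tested.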

How the data were processed

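Poly(A) RNA from 12 livers was sequenced in pairs of reads, and the labels' protocols give the library steps. The authors deposited read counts per gene (total, unique, exon, intron and exon-exon reads) and TPM per library, with GRCm38 named as the genome build per the submitters' processing notes. Neither the aligner nor the use of strand is given in the labels or notes. Total gene counts, which include intron reads, were tested with edgeR 4.0.16 (TMM scaling, filterByExpr, quasi-likelihood test) in R 4.3.3, with all 12 libraries in a single fit and p-values adjusted by Benjamini-Hochberg over 16456 genes at a threshold of 0.05. The steps were tested on simulated data. SE is the log2 change divided by the square root of F. Alternatives were other scalings, filters and read classes, DESeq2 1.42.0, limma 3.58.1 (voom, and trend on log2(TPM + 1)), a replicate block and leaving out libraries. Exon-exon reads were added after seeing the data. Libraries held 28161057 to 33852338 gene reads. The members and gene lists were chosen with earlier results of these data known. Genes named one by one were the members and, from each pathway list, up to 3 called genes with the smallest p in each of the comparisons NASH vehicle against control and CDDO-Me against NASH vehicle; 1 gene so chosen is not reported here. Promoter sequences are from RefSeq, GRCm38.p6.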

Additional observations from a re-analysis of the deposited data

Results flagged for a closer look

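Of 99 sets of 4 livers (33 genes in 3 groups), 9 held a liver far from the other 3, and chance alone flags about 1 in 20. CDDO-Me 1 stood above its group for Fdps (183 CPM, against 95.9 to 99.96), Fdft1 (113 CPM, against 75.9 to 79.1), Lss (36.5 CPM, against 27.0 to 28.1) and Mvk (28 CPM, against 17.3 to 18.6). NASH vehicle 1 stood above its group for Abcg5 (33.9 CPM, against 21.5 to 22.9) and Tm7sf2 (77.8 CPM, against 61.4 to 63.9). NASH vehicle 3 was high for Mvd (16.3 CPM, against 13.98 to 14.13), and NASH vehicle 4 was low for Fdft1 (77.8 CPM, against 90.1 to 92.6). Control 3 was high for Npc1l1 (0.851 CPM, against 0 to 0.0384).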

How the results depend on the processing

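Scaling changed the results most. With library totals alone, as log2(TPM + 1) and as log2(TPM + 0.1), members higher in NASH vehicle livers than in control numbered 7, 9 and 9 (2 with TMM) and lower ones 10, 7 and 7 (20 with TMM). For CDDO-Me against control they were 8, 8 and 8 higher (5 with TMM) and 12, 10 and 10 lower (19 with TMM). Pathway genes were 32, 37 and 37 higher and 9, 4 and 4 lower in NASH vehicle livers than in control, and 32, 32 and 33 higher and 7, 6 and 6 lower with CDDO-Me than in control (10 lower by exon-exon reads). For CDDO-Me against NASH vehicle, log2(TPM + 1) called 4 members and 15 pathway genes lower, and log2(TPM + 0.1) 14 pathway genes lower and 3 higher. Pathway genes higher there were 3 with DESeq2 size factors, 8 with 2 groups only and 9 without control 3 and CDDO-Me 4. With library totals, intron reads called 4 members higher and 4 lower in NASH vehicle livers, and 6 higher and 5 lower with CDDO-Me than in control, or 7 lower without control 3 and CDDO-Me 4.

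Among results called on at least 1 side, signs turned in these cases, in the order library totals (where it turned), log2(TPM + 1) and log2(TPM + 0.1). For NASH vehicle against control, Mvk was at 0.55 and 0.57, Fdft1 at 0.06, 0.28 and 0.28, Sqle at 0.77 and 0.80, Msmo1 at 0.06, 0.29 and 0.30, Nsdhl at 0.13 and 0.13, Hsd17b7 at 0.06 and 0.06, Dhcr7 at 0.07 and 0.07, Insig2 at 0.61, 0.79 and 0.79, Abca1 at 0.16 and 0.17, Cyb5a at 0.03 and 0.03, and Rnf139 at 0.05, 0.24 and 0.26. For CDDO-Me against control, Mvk was at 0.12 and 0.13, Fdft1 at 0.00 and 0.01, Srebf2 at 0.12, 0.22 and 0.23, Lrp1 at 0.32, 0.44 and 0.44, Pltp at 0.00 and 0.00, and Rnf139 at 0.01, 0.15 and 0.16. Signs of results called on neither side also turned, for NASH vehicle against control in Hmgcs1 (up to 0.65), Idi1 (0.39) and Cyp51 (0.46), and for CDDO-Me against control in Hmgcs1 (0.23), Sqle (0.11), Cyp51 (0.39) and Hsd17b7 (0.45), among others. Apart from the scaling itself, the cause was not tested.

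Same-numbered libraries did not pair: their deviations correlated between -0.223 and 0.187, with 2 of 12 pairs above 0.1. With the replicate block, 2 members rose with CDDO-Me over NASH vehicle in place of 4 (Hsd17b7 at adjusted p = 0.054 and Insig2 at 0.057), 3 pathway genes rose there, and 1 member was higher by intron reads in NASH vehicle livers than in control.

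Leaving out each library in turn gave 2 to 3 members higher and 19 to 21 lower in NASH vehicle livers than in control, 2 to 4 higher and 2 to 3 lower with CDDO-Me than NASH vehicle, and 5 higher and 16 to 22 lower with CDDO-Me than control. Pathway genes ranged over 11 to 14 and 19 to 21, 2 to 7 and 6 to 11, and 11 to 13 and 14 to 19 in the same order, and intron-read calls over 0 to 4 and 8 to 14, 2 and 0 to 1, and 2 and 6 to 11. The count of 2 members higher with CDDO-Me came without NASH vehicle 2, 3 or 4 or CDDO-Me 3. Depth of total gene reads does not limit these genes except Npc1l1. Intron reads were few for some members, with 12 to 58 per library for Npc2 and 3 to 27 for Hsd17b7.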
